A study of Rattus norvegicus with 9 samples.

Results

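The 6 arrays described here carry ischemic rat brain and fall into a high and a low group by 1 gene, Ttr, which encodes transthyretin. They are 6 of the 9 arrays of the series. The Ttr probe was read on each array as log2 of the processed signal minus the array's 75th percentile over non-control spots, and arrays above 0 formed the high-Ttr group (3 arrays) and the others the low-Ttr group (3 arrays). On this scale 0 is the 75th percentile of the array and a step of 1 is a doubling. The groups were thus chosen by the measured Ttr signal of the same arrays, so every difference between the groups is given as a description of these arrays, with no test.

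All rats were male Sprague Dawley rats. Middle cerebral artery occlusion (MCAO), a standard stroke model that starves the lateral cortex and the striatum of blood for a time, was followed by reperfusion. MCAO rats received intraperitoneal salidroside, a glycoside of Rhodiola roots, at 50 mg per kg, or saline vehicle, once a day for 6 days from 1 h after reperfusion, with 3 arrays for each treatment. The other 3 arrays carry brain of sham-operated rats, for which the labels name no injection. The labels give the dissected tissue as ischemic brain or sham brain and name no region or hemisphere, and total RNA was labelled with Cy3, 1 array for each sample. The high-Ttr group held vehicle replicates 1 and 3 and salidroside replicate 3, and the low-Ttr group held vehicle replicate 2 and salidroside replicates 1 and 2, so each treatment was present in each group.

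Transthyretin carries thyroxine and, bound to retinol-binding protein, retinol. In the brain it is made and secreted mainly by the epithelium of the choroid plexus, a frond of secretory tissue that hangs in the ventricles and makes cerebrospinal fluid. Its transcript is among the most abundant of that epithelium and is scarce in the surrounding tissue, which is why it marks choroid plexus in a bulk sample. The plexus is continuous with the ependyma, the ciliated sheet that lines the ventricles.

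Values of a gene are given in a fixed order, which is salidroside replicate 3, vehicle replicate 1 and vehicle replicate 3 for the high-Ttr arrays, salidroside replicate 1, salidroside replicate 2 and vehicle replicate 2 for the low-Ttr arrays, and replicates 1, 2 and 3 for sham. All are scaled log2 signals as defined above, and a difference is the mean of the high-Ttr minus the mean of the low-Ttr arrays in log2 units. In bulk tissue, fewer cells of a type and less RNA in each cell cannot be told apart.

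Some arrays stood apart for reasons that the Ttr split did not define. The arrays' 75th percentiles ran from 495.5 to 2340 in processed signal, and 81.96% to 88.52% of probes were well above background on 8 arrays, against 65.62% on sham replicate 3. All 3 high-Ttr arrays and salidroside replicate 2 shared 1 scan identifier, taken as slide 1, while the low-Ttr arrays salidroside replicate 1 and vehicle replicate 2 shared slide 3, and no sham array lay on either slide. Sham replicates 2 and 3 differed by a median absolute difference of 0.0845, as little as spots of 1 probe on 1 array (0.0852), while the next closest pair of arrays differed by 0.183, so they were counted as 1 sample, the mean of both, and sham had an n of 2 in tests. Sham replicate 1 carried more of the striatal transcripts than the other sham arrays, with Adora2a at 0.77 against -3.02 and -3.10. Vehicle replicate 3, a high-Ttr array, alone carried high levels of pineal and photoreceptor transcripts, described further on, so list medians, and gene differences that it moves strongly, are also given without it. The labels give 3 rats per group without tying each array to a rat, so p-values measure the spread between these samples.

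Of the 23890 features with a value on all 6 MCAO arrays, Ttr had the largest difference between the groups that it defines. Its scaled log2 signals were 6.42, 4.28 and 6.43 on the high-Ttr arrays, -3.46, -3.03 and -2.70 on the low-Ttr arrays and -1.31, -2.11 and -2.10 on the sham arrays. The high-Ttr arrays lay far above the others, and the low-Ttr arrays lay below every sham array. The lowest high-Ttr array, vehicle replicate 1 at 4.28, and the highest low-Ttr array, vehicle replicate 2 at -2.70, were 6.98 apart, a 126.4-fold difference, and these are the arrays just inside and just outside the threshold of 0. In processed signal the high-Ttr arrays read 101869, 30521 and 169161 and the low-Ttr arrays 139, 137 and 159. No Ttr spot was saturated. The difference of means was 8.77, and it was 8.41 without vehicle replicate 3, 8.05 within the vehicle arrays, 9.66 within the salidroside arrays and 8.74 within slide 1, where salidroside replicate 2 was the low array.

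The labelled treatments did not follow the split. For salidroside minus vehicle, limma estimated the Ttr difference at -2.70 in log2 units (SE 3.1, adjusted p = 0.992), and for MCAO minus sham at 3.03 (SE 3.1, adjusted p = 0.673). Neither passed the threshold of 0.05, and with 3 arrays per treatment on opposite sides of the split the standard errors were wide.

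Across these 23890 features, 252 (1.05%) were higher in the high-Ttr group by a log2 difference of at least 1 with no overlap between the arrays of the groups, and 106 (0.444%) were lower in the same sense. Without regard to size, 2003 features (8.38%) were higher without overlap and 1509 (6.32%) were lower. A positive difference was found for 14711 of the 23890, and the median difference over all features was 0.10. The split into 252 and 106 moved with the scaling, to 154 and 192 under quantile normalization, 123 and 201 with each array's median subtracted and 79 and 116 in the authors' deposited value table. Because the rule used this contrast, the counts below are set beside these shares and nothing is read from them.

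The choroid plexus lists were drawn up by role and hold 84 genes, of which 71 had a probe and 68 passed the filter on dim probes. Of the 68, 47 had a positive difference, 13 were higher without overlap and 1, Atp1b1, was lower without overlap. Over all 23890 features, 14711 had a positive difference, 2003 (8.38%) were higher without overlap and 1509 (6.32%) lower. By at least 1 log2 unit and without overlap, 9 of 68 (13.2%) were higher and 0 were lower. Among the 9 are Ttr, which defines the groups, and Cltrn, which passed the filter only through the high-Ttr arrays. The median difference was 0.36, against 0.10 for all features, and 0.28 without vehicle replicate 3 and 0.16 within slide 1, where the median of all features was -0.06. Under normexp background correction both medians lay below 0, at -0.22 for the lists and -0.47 for all features. Some defining choroid genes followed Ttr and others did not, as set out below, so the groups are called by their Ttr level and are given no tissue name.

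**Figure D1:**
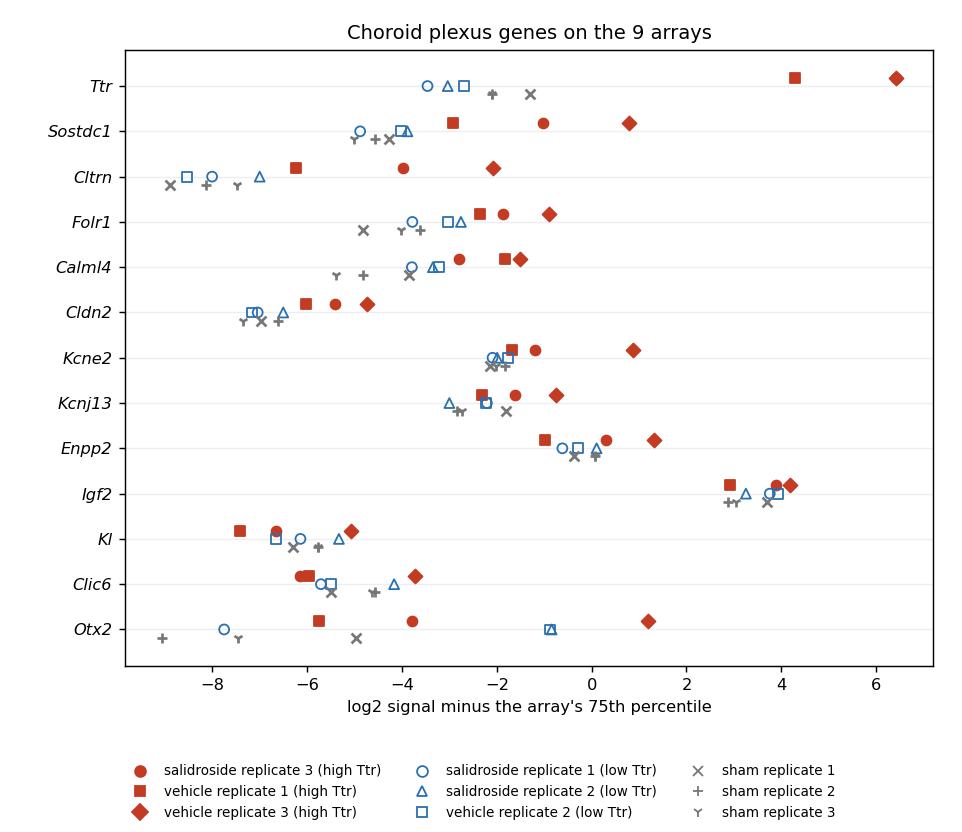
Scaled log2 signal (x axis) of 13 choroid plexus genes (rows) on each of the 9 arrays, with filled red symbols for the high-Ttr, open blue for the low-Ttr and grey for the sham arrays. Ttr, Sostdc1, Cltrn, Folr1, Calml4, Cldn2 and Kcne2 do not overlap between high-Ttr and low-Ttr arrays, whereas Kcnj13, Enpp2, Igf2, Kl, Clic6 and Otx2 do.

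Among secreted and carrier proteins, 5 of 12 tested genes were higher without overlap, against 8.38% of all features. The 5 include Ttr, which defines the groups. Sostdc1, a secreted inhibitor of BMP and Wnt signalling, read -1.03, -2.92 and 0.79 on the high-Ttr arrays, -4.88, -3.88 and -4.01 on the low-Ttr arrays and -4.27, -4.56 and -5.02 on the sham arrays. All 3 high-Ttr arrays lay above the other 6, and the difference was 3.21 (2.28 without vehicle replicate 3 and 2.83 within slide 1). Col8a1, a short-chain collagen, had a difference of 1.00 that came mostly from vehicle replicate 3, at -3.59 against -5.55 and -5.84 on the other high-Ttr arrays, and it was 0.30 without that array and -0.80 under normexp correction. Clu, clusterin, differed by 0.48 without overlap, at a level high in all arrays, with 3.73, 3.71 and 3.97 on the high-Ttr and 3.09, 3.44 and 3.44 on the low-Ttr arrays.

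Other abundant choroid products overlapped. Enpp2, autotaxin, read 0.31, -0.99 and 1.31 on the high-Ttr and -0.62, 0.10 and -0.28 on the low-Ttr arrays, so that vehicle replicate 1 was the lowest array of all 6. Igf2, made by choroid plexus and meninges, differed by 0.01, and Tf, transferrin, by -0.11. Igfbp2, a binding protein for insulin-like growth factors, differed by 0.34 with overlap (0.15 without vehicle replicate 3). Each of these 4 genes is also made outside the plexus, in oligodendrocytes, meninges or astrocytes. The part of other sources was not tested for any choroid gene, with or without overlap.

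Of 24 tested transporters and channels, 3 were higher without overlap and 13 had a positive difference, against 2003 and 14711 of all 23890 features. Folr1, the folate receptor that carries folate across the choroid epithelium, read -1.86, -2.34 and -0.90 on the high-Ttr arrays, -3.78, -2.76 and -3.02 on the low-Ttr arrays and -4.82, -3.62 and -4.02 on the sham arrays. Its difference was 1.48, and 1.08 without vehicle replicate 3. Kcne2, a potassium channel subunit of the apical membrane, read -1.20, -1.68 and 0.86 on the high-Ttr and -2.09, -1.99 and -1.76 on the low-Ttr arrays. Its arrays did not overlap, but vehicle replicate 1 and vehicle replicate 2 were neighbours, and the difference of 1.27 became 0.50 without vehicle replicate 3. Slc39a4, a zinc importer, differed by 1.24, and by 0.62 without that array.

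Other channels and carriers of the choroid epithelium overlapped between the groups or differed little. Kcnj13, an inward rectifier of the epithelium, read -1.61, -2.30 and -0.76 on the high-Ttr and -2.21, -3.0 and -2.22 on the low-Ttr arrays, with vehicle replicate 1 below 2 of the low-Ttr arrays. Its difference was 0.92, and 0.52 without vehicle replicate 3 and 1.44 within slide 1. Trpv4, a cation channel, and Car14, a carbonic anhydrase, differed by 0.60 and 0.58. Aqp1, the water channel of the apical membrane, differed by 0.43 with overlap, and Clic6, an intracellular chloride channel family member, by -0.16 (-0.94 without vehicle replicate 3). The sodium, potassium and chloride carrier Slc12a2 and the anion exchanger Slc4a2, which are also made widely in brain, differed by -0.03 and -0.10. Lrp2, megalin, read -5.44, -4.69 and -3.26 on the high-Ttr and -4.47, -3.23 and -2.68 on the low-Ttr arrays, high on vehicle replicate 3 and on 2 low-Ttr arrays, a difference of -1.0 that was -1.60 without that high-Ttr array. Atp1b1, a sodium pump subunit that neurons also make in quantity, was the member lower without overlap, by a difference of -0.23.

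Of 14 tested receptors, enzymes and membrane proteins, 3 were higher without overlap, against 8.38% of all features. Cltrn, collectrin, a membrane protein that escorts amino acid transporters, was well above background on the 3 high-Ttr arrays, at -3.97, -6.23 and -2.08, and on none of the low-Ttr arrays. Cltrn was not well above background on any sham array either, so it passed the filter on dim probes only through the high-Ttr arrays. Its mean over the high-Ttr arrays was at least 7.77-fold above the background bound of the low-Ttr arrays, with vehicle replicate 1 well below that mean. Under normexp correction the sign turned, with a difference of -0.06, where the median of all features was -0.47. Calml4, a calmodulin-like protein of microvilli, read -2.80, -1.84 and -1.51 on the high-Ttr arrays, -3.79, -3.35 and -3.22 on the low-Ttr arrays and -3.85, -4.83 and -5.39 on the sham arrays, a difference of 1.40 (1.14 without vehicle replicate 3). Cpe, carboxypeptidase E, differed by 0.36 without overlap, at a level high in all arrays. Kl, klotho, which the choroid epithelium makes and releases, differed by -0.34 (-1.0 without vehicle replicate 3) and was well above background on 1 high-Ttr and 2 low-Ttr arrays. Mfrp, a frizzled-related membrane protein, read -5.63, -7.55 and -3.55 on the high-Ttr arrays, of which 2 were well above background, and -5.95 on salidroside replicate 2, the low-Ttr array where it was measured, a value between those of vehicle replicate 1 and salidroside replicate 3. Htr2c, the serotonin receptor that is abundant in the plexus and present in neurons, differed by -0.02.

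The junction proteins and transcription factors gave the same mixture. Cldn2, a claudin of leaky epithelia, read -5.42, -6.02 and -4.74 on the high-Ttr and -7.04, -6.50 and -7.16 on the low-Ttr arrays, where vehicle replicate 2 was the low array not well above background, and the difference was 1.5, or 1.18 without vehicle replicate 3 and -0.83 under normexp correction. Cldn1, Cldn3, Krt18, Cdh3, Ezr and the 4 other tested junction genes overlapped, with differences from -0.32 to 0.69. Msx1, a homeobox factor of the dorsal midline, differed by 0.68 without overlap (0.39 without vehicle replicate 3). Lmx1a, a homeobox factor of the roof plate from which the plexus develops, had a difference of 1.5 (0.78 without vehicle replicate 3), with salidroside replicate 2 and vehicle replicate 2 reaching the level of vehicle replicate 1 and above.

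Otx2, a homeobox factor required in choroid plexus epithelium and also made in midbrain, thalamus, pineal gland and retina, went against the split. It read -3.79, -5.76 and 1.18 on the high-Ttr arrays, -7.75, -0.84 and -0.88 on the low-Ttr arrays and -4.96, -9.06 and -7.46 on the sham arrays. Vehicle replicate 3, salidroside replicate 2 and vehicle replicate 2 were high, and salidroside replicate 3 and vehicle replicate 1, with high Ttr, were low. The difference was 0.37, and -1.61 without vehicle replicate 3. The same 3 arrays were high for Slc17a6 and Calb2, which were picked from the 8 tested genes of the thalamus list after values had been seen. Slc17a6, a vesicular glutamate transporter of subcortical neurons, read -1.91, -1.34 and 1.61 on the high-Ttr and -1.38, 1.61 and 1.62 on the low-Ttr arrays. Calb2, calretinin, read -0.85, 0.02 and 2.05 on the high-Ttr and -0.55, 1.68 and 3.12 on the low-Ttr arrays. The list as a whole did not have this order, since its median level was highest on vehicle replicate 1, at -1.35, and Plekhg1, another member, was lowest on vehicle replicate 2, at -3.19.

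**Figure D2:**
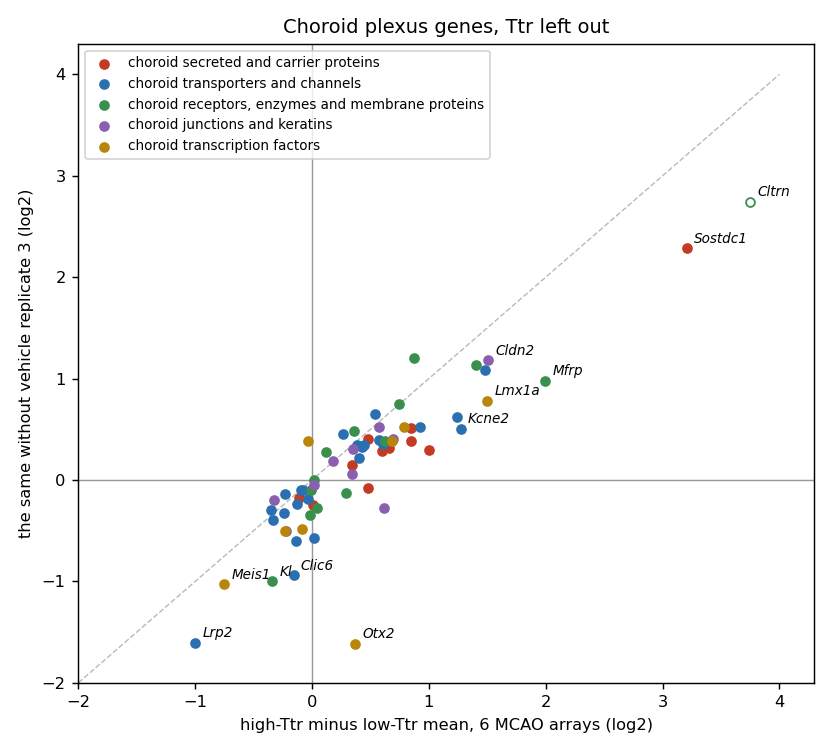
Difference between the mean of the high-Ttr and of the low-Ttr arrays in log2 units for each tested choroid plexus gene except Ttr (points coloured by role), over the 6 MCAO arrays (x axis) and with vehicle replicate 3 left out (y axis); the dashed line marks equal values. The open circle is Cltrn, whose probe is not well above background on any low-Ttr array, so its position is no measured difference. Sostdc1 lies at 3.21 and 2.28, Kcne2 moves from 1.27 to 0.50, and Otx2 moves from 0.37 to -1.61.

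The promoter of Cltrn, the choroid member well above background on all high-Ttr and no low-Ttr arrays, is shown because 2 short motifs of factors named above or below fall in it. The 250 bases before the RefSeq start, GRCr8 chrX:34027125-34027374 on the minus strand, hold the core motif of OTX factors, TAATCC, 82 bases before the start, and the palindrome TTCNNNGAA, to which STAT factors bind, 232 bases before it. Capitals mark the matches.
Cltrn: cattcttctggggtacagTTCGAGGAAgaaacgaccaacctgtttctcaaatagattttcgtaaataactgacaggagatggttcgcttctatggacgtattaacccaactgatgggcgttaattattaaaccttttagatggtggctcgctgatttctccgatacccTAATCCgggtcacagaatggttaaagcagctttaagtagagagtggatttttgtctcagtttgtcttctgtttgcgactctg
In windows of the same length, with both strands searched, TAATCC was present in 6.33% of 27457 rat promoters and in 6 of 51 (11.8%) of the choroid members that had a window. The forkhead core TGTTTAC, of the factor family that includes Foxj1, was present in 3.25% of all promoters and in 1 of the 51. The motifs do not overlap one another in letters, and a match is a stretch of letters, not a shown binding site.

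Genes that handle the 2 ligands of transthyretin were close to the median of all features. Of 17 tested genes for thyroid hormone and retinoid handling, 2 were higher and 1 was lower without overlap, against 8.38% and 6.32% of all features. The median difference was 0.06 (0.11 without vehicle replicate 3). Stra6, the membrane receptor that takes retinol from retinol-binding protein, read -1.88, -2.41 and -2.60 on the high-Ttr and -3.03, -2.62 and -3.30 on the low-Ttr arrays, a difference of 0.69. Rbp4, the plasma retinol carrier that travels with transthyretin, differed by -0.09 with overlap. Slco1c1, a thyroxine transporter of brain endothelium and choroid plexus, read 1.82, 1.60 and 1.40 on the high-Ttr and 2.19, 2.29 and 2.12 on the low-Ttr arrays and was the member lower without overlap. Dio3, the deiodinase that inactivates thyroid hormone, was high on vehicle replicate 1 alone, at -1.73.

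Genes of motile cilia, the organelles that ependymal cells use to move cerebrospinal fluid, were mostly a little higher. Of 71 listed genes, 43 had a probe and 38 passed the filter. Of the 38, 34 had a positive difference, 5 were higher without overlap and 2 of these by at least 1. Over all 23890 features, 14711 had a positive difference, 8.38% were higher without overlap and 1.05% also by at least 1. The median difference was 0.54, and 0.33 without vehicle replicate 3, 0.26 within slide 1 and 0.10 within the salidroside arrays, where all features had 0.08, with -0.59 under normexp correction, below the -0.47 of all features. Drc1, a regulator of the ciliary dynein, read -1.91, -1.75 and -1.93 on the high-Ttr and -2.70, -2.30 and -2.30 on the low-Ttr arrays. Cfap52, an axonemal protein, differed by 0.75 and Vwa3a by 0.82, both without overlap. Dydc2 and Akap14 passed the size of 1, at 1.67 and 1.19, on signals near background, and both turned negative under normexp correction.

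Foxj1, the forkhead factor that turns on the motile cilia programme, did not follow Ttr. It read -0.81, -0.83 and -0.03 on the high-Ttr arrays, -2.49, -0.91 and -0.64 on the low-Ttr arrays and -2.88, -2.14 and -2.33 on the sham arrays. Salidroside replicate 1 lay at the sham level and the other 5 MCAO arrays lay above it, in both groups. Efhb, another axonemal gene, was also lowest on salidroside replicate 1 and highest on vehicle replicate 3, with -7.88 on salidroside replicate 1 and -5.08 and -4.61 on the other low-Ttr arrays. Without salidroside replicate 1 the median of the cilia list was 0.29, and that of all features 0.06.

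Markers of other cells at the ventricle and brain surface were mostly higher too, as were 14711 of all 23890 features. The share of all features higher without overlap, beside which the counts here stand, was 8.38%. All 9 tested tanycyte genes, markers of the radial cells of the third ventricle floor, had a positive difference, with a median of 0.73 (0.70 without vehicle replicate 3), and 3 were without overlap, Slc17a8, Lyz2 and Fgf10. Slc17a8, a vesicular glutamate transporter, turned to -1.06 under normexp correction. Lyz2, lysozyme, is made by microglia and macrophages too. Of 23 genes of the leptomeninges and choroid stroma, 19 had a positive difference, with a median of 0.23 that was 0.06 without vehicle replicate 3, below the 0.10 of all features. The 2 without overlap were the proteoglycan Lum at 1.07 (-0.40 under normexp correction) and the collagen Col1a1 at 0.91, which were 0.58 and 0.53 without that array. All 7 border macrophage genes had a positive difference, with a median of 0.48 (0.37 without vehicle replicate 3), with Cd163, a haemoglobin scavenger receptor, at 1.65 with overlap and Folr2, a folate receptor, at 0.71 without (0.42 without vehicle replicate 3). Under normexp correction the tanycyte and border macrophage medians were -0.27 and -0.35, above the -0.47 of all features.

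**Figure D3:**
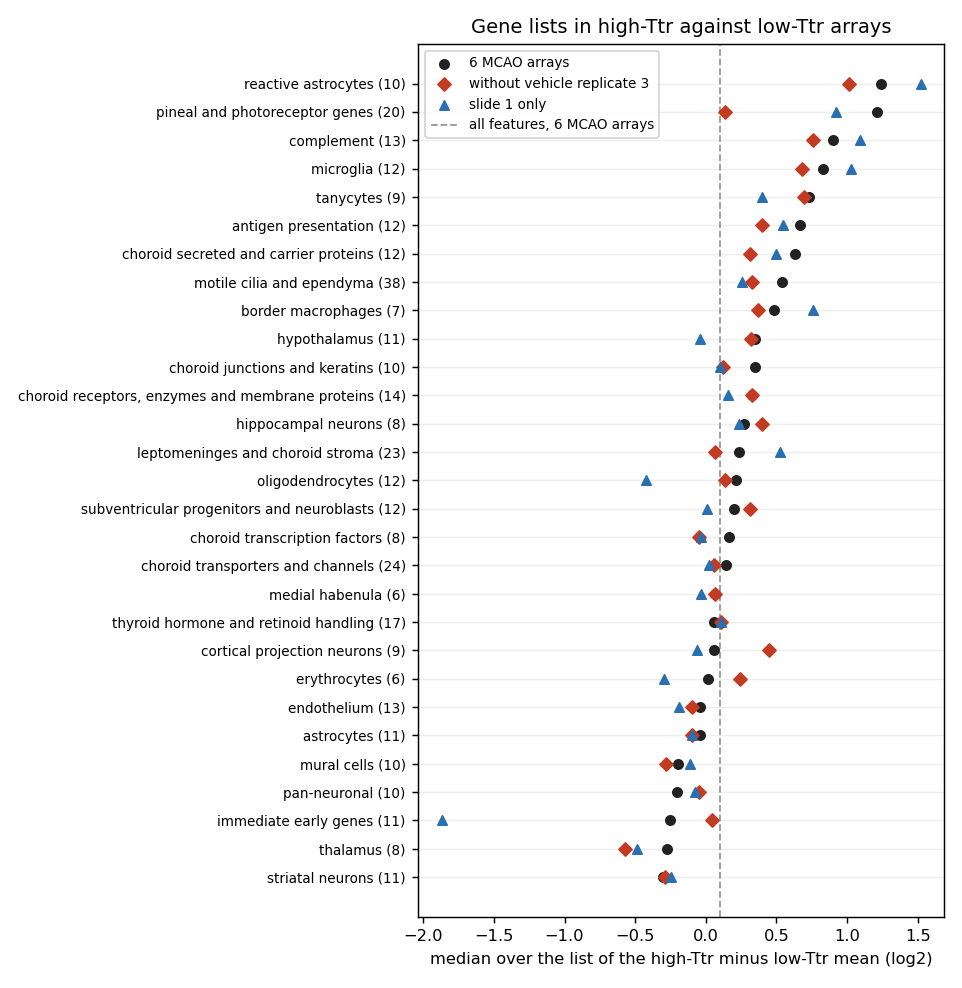
Median over each gene list (rows, with the number of tested genes) of the high-Ttr minus low-Ttr difference in log2 units, over the 6 MCAO arrays (black circles), without vehicle replicate 3 (red diamonds) and within slide 1 (blue triangles); the dashed line is the median of all features, 0.10. That line is for the 6 MCAO arrays, while within slide 1 the median of all features was -0.06. The reactive astrocyte, complement and microglia lists stay right of the line in all 3 versions. So do others, among them the tanycyte, border macrophage, antigen presentation, motile cilia, choroid secreted and hippocampal lists. The pineal and photoreceptor list drops from 1.21 to 0.14 without vehicle replicate 3, and the immediate early list lies at -1.86 within slide 1.

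Genes of reactive astrocytes, the state that astrocytes enter after injury, were higher on the high-Ttr arrays than on the low-Ttr arrays. All 10 tested genes had a positive difference, 6 were higher without overlap and 5 of 10 (50%) by at least 1. The shares over all features were 8.38% without overlap and 1.05% also by at least 1. The median difference was 1.24, with 1.02 without vehicle replicate 3, 1.52 within slide 1 and 0.45 under normexp correction. Its place among the lists moved with the setting, since the pineal list described below had 1.21 over the 6 arrays and 1.77 within the vehicle arrays, against 1.05 here, and the complement and microglia lists had 0.60 and 0.48 under normexp correction. By contrast, the median of 11 genes of astrocytes in general was -0.04 (-0.10 without vehicle replicate 3).

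Serpina3n, a secreted serine protease inhibitor, read -1.43, -0.84 and -1.35 on the high-Ttr arrays, -3.57, -2.83 and -3.55 on the low-Ttr arrays and -3.77, -2.96 and -3.01 on the sham arrays. The low-Ttr arrays lay at or near the sham level and the high-Ttr arrays above both. Lcn2, lipocalin 2, an iron siderophore carrier of the acute phase, read -2.50, -3.29 and -1.86 on the high-Ttr arrays, -5.19, -4.79 and -3.81 on the low-Ttr arrays and -5.54, -5.27 and -5.68 on the sham arrays. Gfap, the intermediate filament of reactive astrocytes, read -1.72, -1.91 and -1.35 on the high-Ttr arrays, -3.87, -2.44 and -2.41 on the low-Ttr arrays and -4.02, -3.09 and -3.15 on the sham arrays, so that 2 low-Ttr arrays also lay above the sham arrays. Vim, vimentin, differed by 1.27 and Timp1, an inhibitor of matrix metalloproteinases, by 1.42, where vehicle replicate 2 reached -0.98 beside -0.97 on salidroside replicate 3. Cd44 and Cp overlapped because vehicle replicate 2 was high, with Cp, ceruloplasmin, at -0.88 there. The probes of Cd44 disagreed in sign, from -0.53 to 1.23.

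The promoters of Serpina3n and Lcn2 are shown as those of the 2 reactive genes with the largest differences, because STAT factors are known to drive the acute-phase programme. The windows are the 250 bases before the RefSeq start in GRCr8, at chr6:129088142-129088391 on the plus strand for Serpina3n and at chr3:36081781-36082030 on the minus strand for Lcn2. Serpina3n holds TTCNNNGAA (capitals) 123 bases before the start, and Lcn2 has no match to these letters in this window.
Serpina3n: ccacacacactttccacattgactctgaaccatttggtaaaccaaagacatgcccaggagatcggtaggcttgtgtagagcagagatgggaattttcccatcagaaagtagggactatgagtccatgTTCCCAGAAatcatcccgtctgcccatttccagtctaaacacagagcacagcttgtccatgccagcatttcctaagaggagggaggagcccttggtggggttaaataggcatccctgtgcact
Lcn2: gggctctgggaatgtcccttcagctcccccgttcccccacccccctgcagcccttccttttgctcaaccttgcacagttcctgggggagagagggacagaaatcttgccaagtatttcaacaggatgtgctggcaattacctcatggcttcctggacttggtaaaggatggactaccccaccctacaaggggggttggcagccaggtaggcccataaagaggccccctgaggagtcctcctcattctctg
The palindrome was present in 7.52% of all 27457 promoters and in 4 of 23 (17.4%) of the tested reactive astrocyte, microglia and complement genes that had a window.

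Microglial genes followed the same arrays. Of 12 tested, 11 had a positive difference, 8 were higher without overlap and 4 by at least 1. Of all 23890 features, 14711 had a positive difference, 8.38% were higher without overlap and 1.05% also by at least 1. The microglial median was 0.83, which was 0.68 without vehicle replicate 3 and 1.03 within slide 1. Trem2, a lipid receptor of activated microglia, read 1.73, 0.91 and 1.41 on the high-Ttr arrays, -0.35, -0.23 and 0.35 on the low-Ttr arrays and -0.38, -0.49 and -0.46 on the sham arrays. Tyrobp, its signalling partner, read 2.66, 2.05 and 3.02 on the high-Ttr arrays, 0.89, 1.22 and 1.61 on the low-Ttr arrays and 0.93, 0.99 and 0.92 on the sham arrays. Vehicle replicate 2 was the highest low-Ttr array for both and salidroside replicates 1 and 2 were at or near the sham level. Itgam, the complement receptor chain CD11b, differed by 1.78 (-0.72 under normexp correction), and Gpr34, a lysophosphatidylserine receptor, by 1.01. P2ry12, a purine receptor of resting microglia, differed by 0.86, with -0.59 on vehicle replicate 2 next to -0.59 on salidroside replicate 3. Cx3cr1, the fractalkine receptor, was the member with a negative difference, -0.37, with overlap (0.01 without vehicle replicate 3).

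Complement and antigen presentation genes, lists that were added after values had been seen, are given as values only. Of 13 complement genes, 8 were higher without overlap, against 8.38% of all features, and the median was 0.90 (0.76 without vehicle replicate 3). C3, the central component, read -0.64, -1.54 and -0.41 on the high-Ttr arrays, -3.51, -2.04 and -2.02 on the low-Ttr arrays and -3.20, -2.90 and -3.08 on the sham arrays. C1qb, a chain of the C1q recognition molecule, read 3.30, 3.35 and 4.06 on the high-Ttr and 1.65, 1.89 and 3.18 on the low-Ttr arrays, with vehicle replicate 2 just below the high-Ttr arrays, and C1qa and C1qc overlapped by that array. Serping1, the C1 inhibitor, differed by 1.36. All 12 antigen presentation genes had positive differences, as did 14711 of all 23890 features. Their median was 0.67, which was 0.40 without vehicle replicate 3 and -0.05 under normexp correction, where all features had -0.47. Of the 12, 3 were without overlap, against the same 8.38% of all features, and none reached 1.

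**Figure D4:**
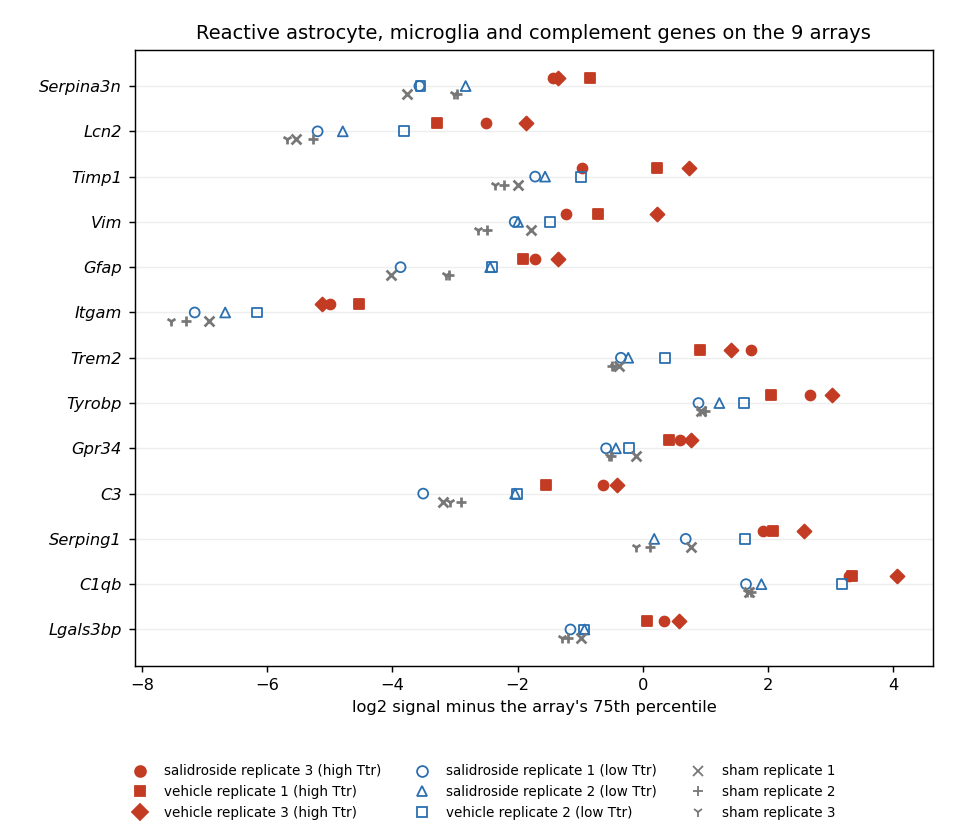
Scaled log2 signal (x axis) of 12 reactive astrocyte, microglia and complement genes and of Lgals3bp on each of the 9 arrays; filled red symbols are high-Ttr, open blue low-Ttr and grey sham arrays. The rows drawn are genes without overlap, so the 3 red symbols lie right of the 3 blue ones by that choice. C1qa, C1qc, Cd44 and Cp, which overlap, are not drawn. Vehicle replicate 2 (blue square) is the nearest low-Ttr array in every row except Serpina3n and Lgals3bp, where salidroside replicate 2 is.

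Pineal and photoreceptor genes set vehicle replicate 3 apart from the other 8 arrays. The list was added after this was seen, and holds 24 genes with a probe, of which 20 passed the filter. Their median scaled level was 0.31 on vehicle replicate 3 and between -5.61 and -4.56 on the others. Tph1, the enzyme that starts serotonin and melatonin synthesis in the pineal gland, read 4.57 on vehicle replicate 3 and between -6.61 and -3.24 elsewhere. Asmt, the last enzyme of melatonin synthesis, read -0.28 there and at most -4.46 elsewhere, and Aanat, the enzyme before it, -2.29 and at most -4.05. The photoreceptor arrestin Sag, which pinealocytes also make, read 0.92 and at most -3.61 elsewhere.

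Gngt2 and Guca1b, genes of phototransduction, also stood above the low-Ttr and sham arrays on salidroside replicate 3. Gngt2 read -1.54, -2.56 and 3.31 on the high-Ttr arrays, -3.10, -3.13 and -2.88 on the low-Ttr arrays and -2.90, -3.10 and -3.22 on the sham arrays, a difference of 2.77 that was 0.98 without vehicle replicate 3. Guca1b read -1.91, -5.27 and 0.96 on the high-Ttr arrays, -5.76, -5.48 and -5.73 on the low-Ttr arrays and -5.46, -5.30 and -5.55 on the sham arrays, a difference of 3.58 that was 2.06 without vehicle replicate 3, although another of its probes differed by -0.30. Crx, the homeobox factor of pineal and retina, differed by 1.21 without overlap. Their part in the differences between high-Ttr and low-Ttr arrays was not tested.

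**Figure D5:**
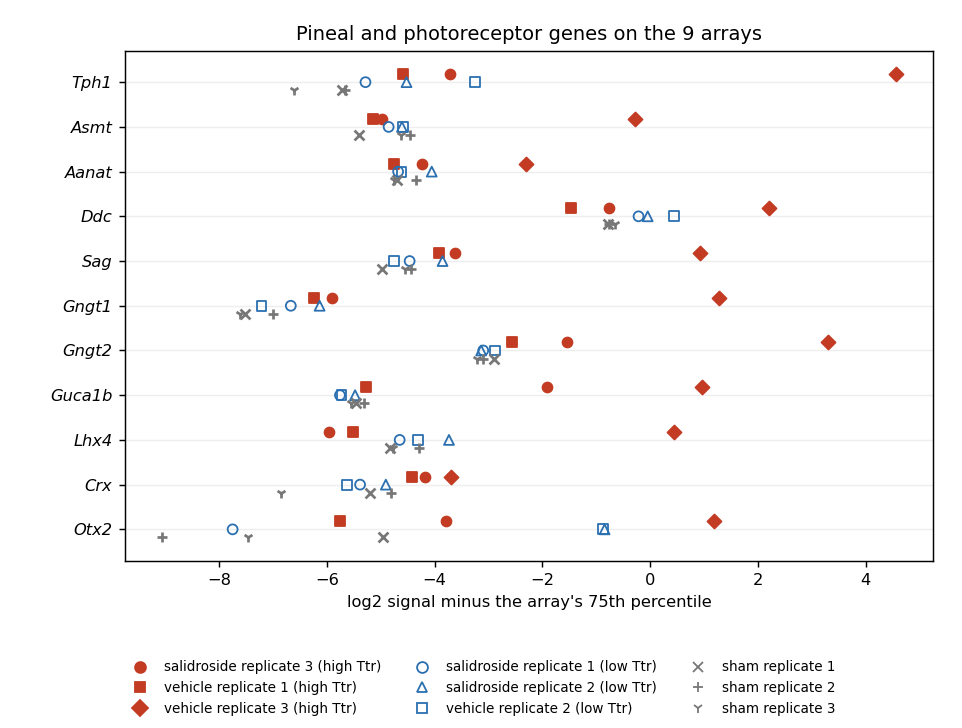
Scaled log2 signal (x axis) of 11 pineal and photoreceptor genes (rows) on each of the 9 arrays; filled red symbols are high-Ttr, open blue low-Ttr and grey sham arrays. Vehicle replicate 3 (red diamond) lies to the right in every row, at 4.57 for Tph1 against at most -3.24 elsewhere and at -3.69 for Crx against at most -4.18.

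Neuronal lists lay on both sides of the median of all features. The median was -0.20 for 10 pan-neuronal genes (-0.05 without vehicle replicate 3). Of these, 3, Elavl4, Map2 and Eno2, were lower without overlap, against 6.32% of all features. Elavl4, an RNA-binding protein of neurons, read 3.68, 3.45 and 3.06 on the high-Ttr and 4.08, 3.71 and 3.83 on the low-Ttr arrays. Map2, a dendritic microtubule protein, differed by -0.39. Of 11 striatal genes 3 were lower without overlap, against the same 6.32%, and the striatal median was -0.30 (-0.29 without vehicle replicate 3). Among the 3 was Pde10a, the phosphodiesterase of striatal spiny neurons, at -0.43, -0.60 and -1.22 on the high-Ttr and 0.76, -0.26 and 0.18 on the low-Ttr arrays. Probes of Ppp1r1b, another of the 3, disagreed in sign. Cortical, hippocampal and hypothalamic medians were 0.06, 0.27 and 0.34, with no gene without overlap, and 0.45, 0.40 and 0.32 without vehicle replicate 3. Of 11 hypothalamic genes 10 had a positive difference, against 14711 of all 23890 features, and their median was -0.04 within slide 1.

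Vascular and myelin lists had small medians over the 6 MCAO arrays. They were -0.04 for endothelium, where Slco1c1 was lower without overlap, -0.20 for mural cells, 0.21 for oligodendrocytes and 0.01 for erythrocytes. The last 2 changed sign with the arrays used, at 0.51 and 0.58 within the salidroside arrays and -0.42 and -0.30 within slide 1. Without vehicle replicate 3 the medians, from endothelium to erythrocytes, were -0.10, -0.28, 0.13 and 0.24. The thalamus, medial habenula and subventricular lists had medians of -0.27, 0.06 and 0.20, with no member without overlap, and -0.57, 0.06 and 0.31 without that array.

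Immediate early genes, which neurons switch on with activity, had array values that separated the treatments for Egr2 and Arc, picked after values had been seen. Egr2, a zinc finger factor, read 0.81, -1.97 and -3.86 on the high-Ttr and 0.74, 0.95 and -3.19 on the low-Ttr arrays, so that the 3 salidroside arrays were high and the 3 vehicle arrays low. Arc, a synaptic plasticity gene, read 4.09, 1.29 and -0.22 on the high-Ttr and 3.47, 4.0 and 0.27 on the low-Ttr arrays, again with every salidroside array above every vehicle array. For salidroside minus vehicle, limma estimated 3.84 in log2 units for Egr2 (SE 0.445, adjusted p = 0.175) and 3.41 for Arc (SE 0.438, adjusted p = 0.224), and 0 of 11 such genes passed, with 8 at an unadjusted p under 0.05. Between high-Ttr and low-Ttr arrays the median difference of the 11 was -0.26, with no member without overlap, and its direction was not stable. It was 0.04 without vehicle replicate 3, 0.27 within the vehicle arrays, 0.24 within the salidroside arrays and -1.86 within slide 1, where the low-Ttr array is a salidroside array and 2 of 3 high-Ttr arrays are vehicle arrays.

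Among all 13822 features with a gene symbol, 68 of them choroid list members, the largest differences included 3 choroid genes, Ttr, Cltrn and Sostdc1. Ttr defines the groups and Cltrn passed the filter only through the high-Ttr arrays, so nothing is read from this count. The 12 largest positive differences without overlap were those of Ttr, Cltrn, Guca1b, Sostdc1, Glycam1, Gngt2, Slfn4, Mmp7, Gpnmb, Or5w8b, Wdr93 and Fcrl2. Cltrn and Mmp7 stand among them by readings that were not well above background on the low-Ttr arrays, so their rank is not settled. Both passed the filter on dim probes only through the high-Ttr arrays. Under normexp correction the differences of Cltrn, Slfn4, Mmp7, Or5w8b and Wdr93 turned, to -0.06, -0.10, -0.58, -0.45 and -0.41. In that setting the median of all features was -0.47, and of these genes Mmp7 alone lay below it. Glycam1, a mucin-like ligand of L-selectin, read -5.35, -3.73 and -2.34 on the high-Ttr and -6.96, -6.66 and -7.35 on the low-Ttr arrays, a difference of 3.19 (2.45 without vehicle replicate 3). Gpnmb, a glycoprotein of lipid-laden phagocytes, read -1.41, -1.06 and 0.49 on the high-Ttr and -4.06, -3.57 and -1.96 on the low-Ttr arrays, a difference of 2.54 (1.96 without vehicle replicate 3), and Fcrl2 differed by 2.38. Mmp7, a matrix metalloproteinase, was well above background on the high-Ttr arrays alone. Its high-Ttr mean was at least 3.09-fold above the bound of the low-Ttr arrays. That mean rested on vehicle replicate 3, at -3.36, while vehicle replicate 1 read -7.03, beside -7.11 on the low-Ttr array salidroside replicate 2. Or5w8b and Wdr93 rested on salidroside replicate 3, at -1.85 and -1.97, while the other high-Ttr arrays were at most -5.75 and -5.79.

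On the negative side, differences were smaller. Scgb1d2 was well above background on 2 low-Ttr arrays and on no high-Ttr array, and the low-Ttr mean was at least 1.94-fold above the bound. Tex10, a component of a ribosome maturation complex, read -3.41, -2.94 and -1.71 on the high-Ttr arrays, -0.64, -0.34 and -0.90 on the low-Ttr arrays and 0.23, 0.20 and 0.19 on the sham arrays, with the high-Ttr arrays below the other 6. Ctxn3, a small membrane protein, differed by -1.64 and Grm4, a metabotropic glutamate receptor, by -1.34. Adarb1, an RNA editing enzyme, read 1.11, 0.46 and 1.1 on the high-Ttr and 2.17, 1.57 and 2.47 on the low-Ttr arrays. Of the MCAO arrays, Mospd4 was well above background on the low-Ttr ones alone. Its low-Ttr mean was at least 1.69-fold above the bound of the high-Ttr arrays. The other 6 were Iws1, Tmem178b, Krt80, Mcc, Krt23 and Defb43, with differences from -1.47 to -1.11, where Iws1, at the lower end, was well above background on 1 high-Ttr array.

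Ranked by Pearson correlation with Ttr over the 6 MCAO arrays, the closest named genes included Aprt, Lgals3bp, RT1-Db1, Ccnf, Acp3, Fshr and Tas2r113. The arrays form separate clusters in Ttr, so the coefficient itself is not given and the values show the likeness. Aprt, an adenine salvage enzyme, read 0.15, 0.12 and 0.17 on the high-Ttr arrays, -0.20, -0.17 and -0.17 on the low-Ttr arrays and -0.56, -0.39 and -0.34 on the sham arrays, tight within each group and with a difference of 0.32. Lgals3bp, a secreted galectin ligand, read 0.34, 0.07 and 0.57 on the high-Ttr arrays, -1.16, -0.93 and -0.94 on the low-Ttr arrays and -0.99, -1.20 and -1.29 on the sham arrays. RT1-Db1, a class II histocompatibility chain, differed by 0.93 and Acp3, a phosphatase, by 1.02. None of these genes is a member of the choroid lists.

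The 252 and 106 features were followed through parts of the 6 arrays, where all of them kept their sign because groups that do not overlap fix it. A difference of at least 1 was also found for 189 of the 252 without vehicle replicate 3, for 174 within the vehicle arrays, for 184 within the salidroside arrays and for 139 within slide 1. For the 106 lower features these numbers were 95, 99, 65 and 26. Chosen anew without vehicle replicate 3, 432 features were higher and 538 lower, of which 189 and 95 were among those above, and without salidroside replicate 2 they were 1347 and 156. Without vehicle replicate 1 they were 475 and 112.

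Tests by the treatment labels, which did not use the Ttr split, called no member of these lists. For salidroside minus vehicle, limma called 0 of 23944 features in either direction (0%), with 1115 at an unadjusted p under 0.05, and 0 of the 68 choroid, 38 cilia, 10 reactive astrocyte and 12 microglial genes, with 5, 9, 5 and 2 at that level. For MCAO minus sham, 56 features (0.234%) were higher and 136 (0.568%) lower at an adjusted p under 0.05, and again 0 of the 68 choroid, 38 cilia, 10 reactive astrocyte and 12 microglial genes were called, with 13, 18, 5 and 2 at an unadjusted p under 0.05. The median of the choroid lists was -0.29 for salidroside minus vehicle and 0.36 for MCAO minus sham, against 0.06 and 0.13 for all features. For Lcn2 the MCAO minus sham estimate was 1.93 in log2 units (SE 0.76, adjusted p = 0.258), which did not pass. Leaving out salidroside replicate 1 took the MCAO calls to 1101, and with Ttr as a covariate they were 75. Without sham replicate 1 the sham group holds 1 sample, so no count is given for that fit.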

How the data were processed

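Total RNA of 9 brain samples was hybridised to 1-colour Agilent arrays. Per the file headers, spots were quantified in Agilent Feature Extraction (version 11.0.1.1, protocol GE1_1100_Jul11), and the deposited processed signal is a linear intensity from which background was subtracted on each array. A value table that the authors deposited, with log2 values for 19477 probes, served as an alternative; its column medians run from 8.691 to 8.706, all columns share a maximum of 17.91, and each correlates at 0.99967 or more with its own array.

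In R 4.3.3, processed signals were converted to log2 and scaled by subtracting the 75th percentile over the 42877 non-control spots of the array. Outlier spots were left out and spots of a probe averaged. A probe was kept if well above background on at least 3 of 9 arrays, whatever their group (26943 of 30367 probes). A gene seen on the 3 high-Ttr arrays alone, as Cltrn and Mmp7 were, passed through that group. Names came from transcript accessions through a RefSeq table on GRCr8 (18005 probes), while the array was designed on rn4; promoter sequences are RefSeq's on GRCr8. The brightest probe of each name gave 23944 features, 13822 with a symbol. Treatment groups were tested with limma 3.58.1 (lmFit, eBayes) on 8 samples with 5 residual degrees of freedom and Benjamini-Hochberg adjustment at 0.05, since sham replicates 2 and 3 were counted as 1 sample after their values were compared; the design had counted 9. In simulated data for salidroside minus vehicle, with 200 of 23879 features changed, 28.4% of changes of 1, 62.7% of 2 and 92.4% of 3 log2 units were recovered, with 5 false calls. For MCAO minus sham the shares were 22.4%, 68.7% and 83.3%, with 10 false calls. The simulated noise was independent for each gene and array, with nothing shared by an array or slide. These shares are therefore not the recovery in the data, where Egr2, at 3.84 for salidroside minus vehicle, was not called.

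The split by Ttr, the gene lists and the naming rule were chosen with earlier results of these data known. Named are Ttr, the 12 largest positive and negative differences without overlap, the 8 genes most correlated with Ttr, up to 12 members of each choroid and cilia list and 5 of others by size, and members shown for their role; some named by this rule are not reported here. Replicate numbers did not pair the samples. The scanner output as read here held no mean-signal column, so the median spot signal was used for normexp correction. Figures were drawn with matplotlib 3.10.9. The number of arrays limits precision.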

Additional observations from a re-analysis of the deposited data

How the results depend on the processing

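Over the alternatives, the count of features past a log2 difference of 1 without overlap was 358 in the report's setting, 2786 with normexp background correction on the median spot signal (26 higher and 2760 lower, 124 of the 358 among them), 195 in the authors' deposited value table (148 shared) and 203 for probes well above background on all 9 arrays; leaving out 1 array gave 365 to 1503, with 970 without vehicle replicate 3, 587 without vehicle replicate 1 and 1503 without salidroside replicate 2. The choroid median of 0.36 was -0.223 with normexp, where all features had -0.472, and 0.128 to 0.522 in every other setting. Differences with normexp were -0.0642 for Cltrn, -0.102 for Slfn4, -0.58 for Mmp7, -0.453 for Or5w8b, -0.414 for Wdr93, -0.0115 for Tas2r113, -0.796 for Col8a1, -0.828 for Cldn2, -0.984 for Dydc2, -0.876 for Akap14, -1.06 for Slc17a8, -0.403 for Lum and -0.719 for Itgam; the cause was not tested. Median scaling took the median of all features to -0.111 and left each list where it was relative to that median. For salidroside minus vehicle, with 0 calls, 2 calls came from quantile normalization, 1 came from the authors' deposited values, 3 from array weights and 3 from sham replicates 2 and 3 as separate samples, with 0 without any 1 array; with the replicate number as a block the count was 0. For MCAO minus sham, with 192 calls, normexp gave 0, quantile normalization 378, median scaling 468, the deposited values 294, separate sham samples 677, Ttr as a covariate 75, slide as a random block 314 and the replicate block 273. Leaving out 1 array gave 41 (salidroside replicate 2) to 1101 (salidroside replicate 1), with 383 without sham replicate 2, 82 without vehicle replicate 2, 53 without vehicle replicate 1, 46 without vehicle replicate 3 and 43 without salidroside replicate 3. The fit without sham replicate 1 is not counted here, since it leaves 1 sham sample. Normexp on the median signal, the separate sham samples, both blocks built on them and the list of pineal genes were chosen after seeing the data. The planned normexp on the mean signal was not run, since the scanner output as read here held no mean-signal column. Ttr has 1 probe, so a mean over its probes gives the same split. Same-numbered vehicle and salidroside arrays had deviations that correlated at -0.112, -0.077 and 0.013, so the numbers were not read as pairs. No sham array shares a slide with an MCAO array, so slide and operation cannot be told apart. Probes near background limit the dim genes, and an array that was dimmer, sham replicate 3, measured fewer of them.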
